A study of Mus musculus with 2 samples.

Results

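MacroH2A1, a variant of the core histone H2A, was mapped in E14 mouse embryonic stem cells, and 20 of its 2560 listed peaks lay on one stretch of chromosome 5 that holds Mn1, Asphd2, Sez6l and Myo18b. The members were all rows of the deposited macroH2A1 peak list between 111.8 and 113.5 Mb of chromosome 5 (build mm9) together with all rows that carry the symbol of one of those 4 genes. Of the 20 peaks, 10 were listed under the 4 genes and 10 under other genes of the same stretch, and no peak of the 4 genes lay outside it. The stretch was chosen by the positions, numbers and widths of its peaks in this same list, as earlier results had shown them. These values are therefore described here and not tested.

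The study has 2 libraries from chromatin immunoprecipitation and sequencing (ChIP-seq) of E14 cells, an established embryonic stem cell line. For 1 library an antibody raised against a part of mouse macroH2A1 was used, and for the other a non-specific IgG. The cells were untreated and were grown on gelatine with serum and leukemia inhibitory factor, which keeps embryonic stem cells from differentiating. There is 1 library of each kind, so no value below has a replicate error. The list gives each peak's position, assigned gene and class. It holds no read count, height or fold enrichment, and the sequencing depth is unknown.

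MacroH2A1 differs from H2A by a long linker and a globular macro domain that stands out from the nucleosome. It is best known from the inactive X chromosome and from silent regions of the autosomes, where it forms broad domains, and it has also been found at developmental genes. Of the genes that were assigned peaks here, Sez6l, Myo18b, Mn1 and Cryba4 are known for roles in particular tissues. Sez6l encodes a neuronal membrane protein with CUB and sushi domains, a relative of the seizure-related protein Sez6. Myo18b encodes an unconventional myosin of striated muscle, and Mn1 a transcriptional coregulator needed for the development of the skull and palate. Asphd2 encodes a protein with an aspartate beta-hydroxylase domain, and Cryba4 a crystallin of the eye lens.

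Sez6l had the most peaks of the stretch, and its start was free of them. The 250 bases before a Sez6l start are shown because all 6 peaks listed under the gene lay at a distance from its start. The sequence is from RefSeq (build GRCm38.p6, chr5:112577199-112577448, minus strand) and is written 5′ to 3′, with each CG dinucleotide in capitals. GRCm38.p6 is a later build than that of the peaks, so these coordinates cannot be set beside theirs.
Sez6l: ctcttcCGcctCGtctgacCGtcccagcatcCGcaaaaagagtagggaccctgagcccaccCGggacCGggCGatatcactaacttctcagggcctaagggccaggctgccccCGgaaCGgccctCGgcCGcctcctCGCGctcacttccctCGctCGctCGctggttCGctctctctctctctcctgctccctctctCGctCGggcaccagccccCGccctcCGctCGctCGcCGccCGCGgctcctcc
It holds 26 CG dinucleotides, a motif that reads the same on both strands, and 69.6% of its bases are G or C. At least 26 were found in 9.59% of the 32851 RefSeq promoter stretches of this length, whose median was 6, and 92.1% of them held at least 1. Of the 4 genes, 2 were matched in that table. Asphd2 has a pair of starts in it, with 6 and 45 CG dinucleotides in the 250 bases before them, and Mn1 and Myo18b were not matched.

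Peaks were dense in the stretch but unevenly spread, and 3 gaps made up 746 of the 1369 kb from the first peak to the last. The stretch held 20 peaks in 1.7 Mb, or 11.8 per Mb, against 1.56 per Mb over the rest of chromosome 5 and 1.04 per Mb over the whole list. When the chromosomes were divided into 1469 windows of 1.7 Mb, with those of chromosome 5 laid so that one of them was the stretch, the median window held 1 peak and 384 held none. The stretch was the single window with 20 or more (0.0681% of windows), and the next held 17, 16 and 14. That grid favours the stretch, whose bounds were drawn around its peaks. With windows that could begin at any peak, the highest count was 21, from the first Mn1 peak to a peak in the crystallin gene Crybb3. The second was 20, in the interval of chromosome 5 that includes Tbx5 (118806800 to 120342300).

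**Figure D1:**
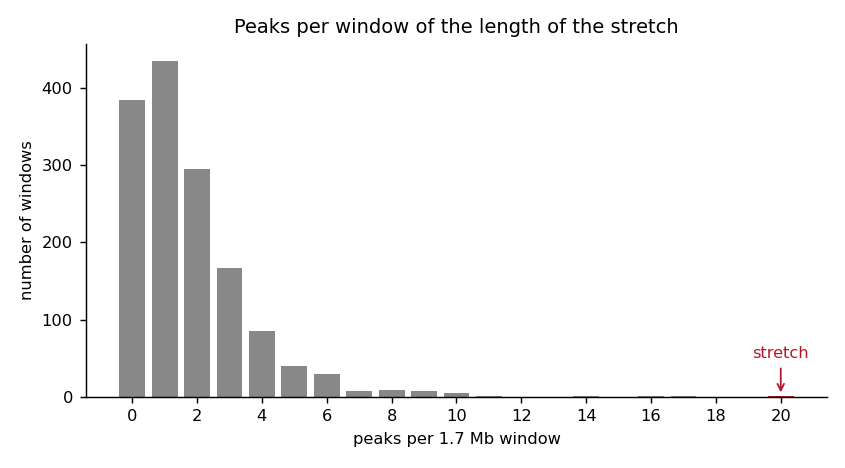
Number of macroH2A1 peaks (horizontal axis) in 1469 windows of 1.7 Mb (vertical axis, number of windows). The window of the stretch, in red, holds 20 peaks, and the median window holds 1.

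The bounds of the stretch fell in gaps of different length. The first member, at Mn1, lay 108 kb inside the lower bound, and the nearest peak before it (111499150 to 111500950, near a gene without a symbol) lay 407 kb away. At the upper end the last member, in Myo18b, lay 223 kb inside the bound. The next peak, 1551 bp wide and inside Crybb3 (113507400 to 113508950), fell 7.40 kb beyond the bound and was left out by it, 230 kb from the Myo18b peak.

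**Figure D2:**
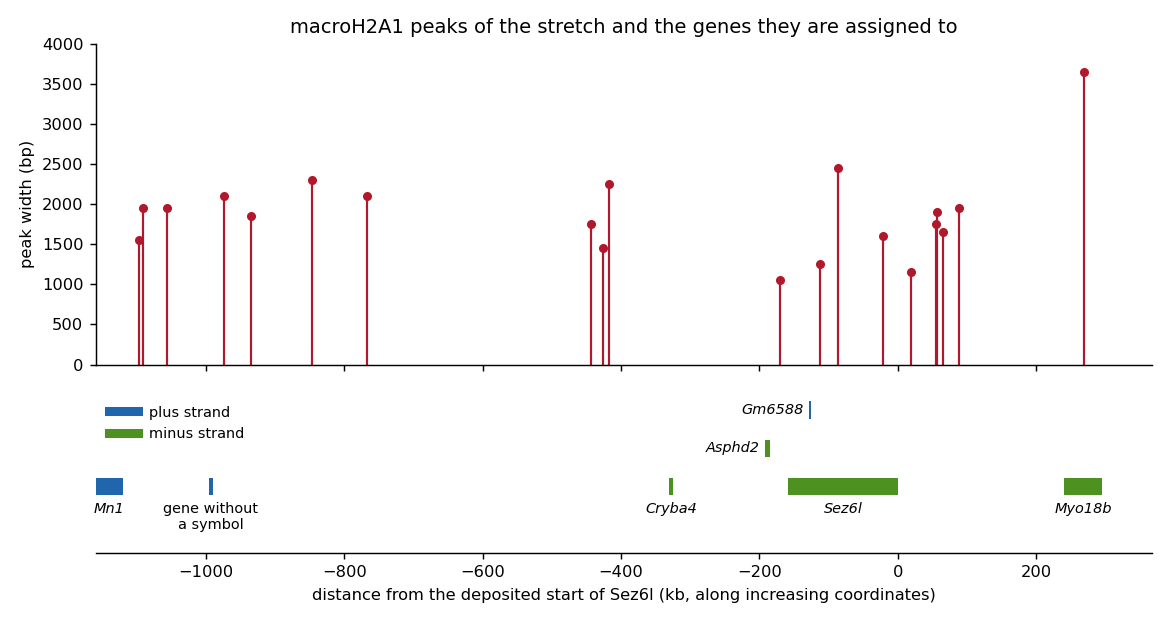
The 20 peaks by position (horizontal axis, distance in kb from the deposited start of Sez6l) and width (vertical axis, bp), above the deposited extent and strand of the 7 genes they are assigned to. Peaks stand in groups at Mn1, below Cryba4 and at Sez6l, with the 3651 bp peak of Myo18b alone at the right.

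Sez6l was one of 5 genes with 6 or more peaks among the 2132 genes of the list (0.235%). Its gene, on the minus strand, extended from 112848180 to 113006205. A single one of the 6 peaks was classed as inside it, 1601 bp wide and 20.1 kb from the start (112984500 to 112986100). The other 5 were upstream, at 18.9, 54.2, 56.1, 64.6 and 86.9 kb. Their widths in that order were 1151, 1751, 1901, 1651 and 1951 bp. The farthest lay at 113093150 to 113095100, and no further peak followed for 178 kb, up to the one in Myo18b.

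The peaks of Sez6l formed a run, defined here as 3 or more consecutive peaks with gaps of at most 50 kb. The run extended over 111 kb, of which 9.05% was covered by peaks. The list held 43 such runs, of which 29 had 3 peaks, 9 had 4, 2 had 5, 2 had 6 and 1 had 8. The other run of 6 included peaks of Pax7 on chromosome 4. The run of 8 belonged to a gene without a symbol on chromosome 5 (119753550 to 119856050). Within the Sez6l run the gaps were 39.0, 34.1, 0.199, 6.55 and 20.7 kb, so that 4 of the peaks lay within 34.7 kb. The peaks at 54.2 and 56.1 kb were separated by 199 bp and together spanned 3851 bp (113060400 to 113064250). Gaps this short are rare in the list, where 3 of 2538 were 199 bp or less and 11 were under 1 kb.

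Sez6l also held peaks that were listed under another gene. Gm6588, a small gene on the plus strand, lies within Sez6l (112878446 to 112880758). Each peak is listed under whichever gene starts closest to it. Both of its peaks, classed as downstream of it, lay inside Sez6l. One was 1251 bp wide, 111 kb from the start of Sez6l (112893750 to 112895000). The other was 2451 bp wide, 84.9 kb from that start (112918900 to 112921350), and was the second widest of the stretch. With them, 3 peaks lay inside Sez6l and 8 were either inside it or assigned to it. Counted in this way for all 2132 genes, 1 gene had more peaks, the unnamed ENSMUSG00000084548 of chromosome 5 with 9. Peaks that missed their own gene but overlapped another gene of the list made up 2 of 20 here (10.0%) and 54 of 2558 overall (2.11%).

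**Figure D3:**
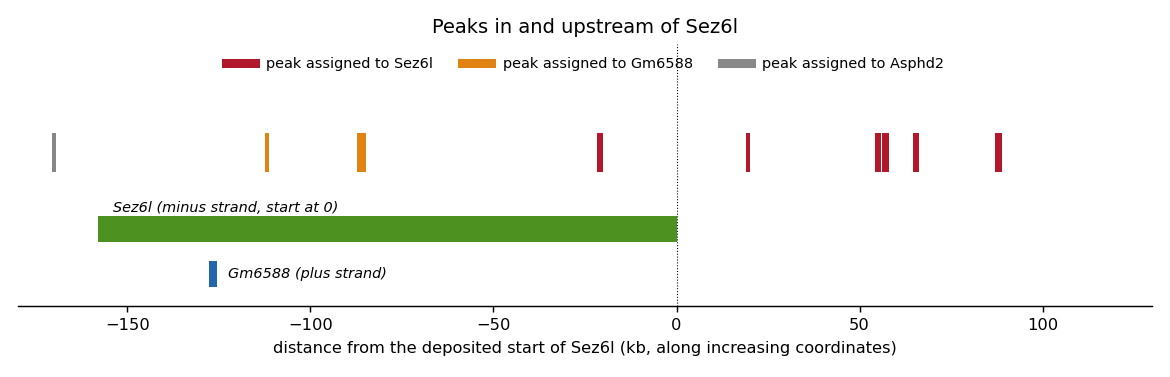
Peaks (upper row, drawn to scale) around Sez6l by distance in kb from its deposited start, coloured by the gene to which they are assigned. The 2 peaks assigned to Gm6588 lie within the Sez6l gene, and no peak lies within 18.9 kb of its start.

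Asphd2 and Myo18b, the neighbours of Sez6l on either side, had 1 peak each, and these were the narrowest and the widest of the stretch. The Asphd2 peak was 1051 bp wide, the smallest width in the list and one that many other peaks share. It lay 14.4 kb upstream of the start (112835600 to 112836650), in the 26.9 kb between Asphd2 and the end of Sez6l. It was the closest of all 20 peaks to an assigned start. The Myo18b peak was 3651 bp wide and the fifth widest of the 2558 distinct regions. It lay inside the gene, 24.6 kb from the start (113273300 to 113276950). Its nearest neighbours were 178 and 230 kb away, so the widest peak stood alone. The deposited Myo18b gene is 55.3 kb long, whereas the RefSeq gene of that name is 208 kb, 3.75 times as long. The deposited genes were also shorter for Asphd2 (6.77 against 11.0 kb) and Cryba4 (6.03 against 17.1 kb). For Sez6l (158 and 159 kb) and Mn1 (38.9 and 39.7 kb) the lengths were close. The builds differ, so the peaks were not placed against the RefSeq genes.

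Mn1 had 2 peaks, neither in the gene. They lay 22.2 and 27.7 kb past its end (gene at 111847186 to 111886045, plus strand), 61.0 and 66.6 kb from its start, with 4.00 kb between them. Their widths were 1551 bp (111908200 to 111909750) and 1951 bp (111913750 to 111915700). The peak after them, 33.3 kb farther on and 1951 bp wide, completed a run of 3 over 42.8 kb. It was assigned to the next gene, ENSMUSG00000052848, for which the list gives no symbol.

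The interval from Mn1 to Cryba4 held 10 of the 20 peaks, the 2 of Mn1 among them. It is 789 kb long, so it held 1.27 peaks per 100 kb, close to the 11.8 per Mb of the whole stretch. Its peaks had a median width of 1951 bp (range 1451 to 2301 bp). In the RefSeq table no protein-coding gene lies between Mn1 and Cryba4, and 20 long non-coding RNA genes do. Of those, Miat, a nuclear non-coding RNA known from neurons, is the one with a proper name, and no peak was listed under it. Whether the annotation behind the list holds Miat was not checked. ENSMUSG00000052848 took 5 of the 10 peaks. One was 59.6 kb upstream of its start and 4 were downstream, at 21.2, 59.5, 147 and 227 kb. They were 1951, 2101, 1851, 2301 and 2101 bp wide, each above the list's median of 1551 bp. Apart from the pair separated by 36.1 kb, their gaps were 77.1 to 85.9 kb, too long for a run.

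Cryba4 closed this interval with 3 peaks in a run of 28.2 kb, of which 19.3% was covered. The peaks were 1751, 1451 and 2251 bp wide (112561750 to 112589950) and 15.2 and 7.55 kb apart. All were downstream of Cryba4, 85.6 to 112 kb past its end, so the name Cryba4 marks the closest listed start and no overlap with the gene. Between this run and the last peak of ENSMUSG00000052848 lay the longest gap of the stretch, 322 kb.

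The second longest gap, 246 kb, separated the Cryba4 run from the Asphd2 peak and covered the segment with the most protein-coding genes. The 133 kb between Cryba4 and Asphd2 held no peak. Between the RefSeq Cryba4 and Asphd2, both longer than the deposited genes, lie 5 protein-coding genes. They are Tpst2, a tyrosyl sulfotransferase, Tfip11, a splicing factor, Srrd, Hps4, a gene of lysosome-related organelles, and Gm6583. Genes that overlap the RefSeq Cryba4 or Asphd2 are not counted, so that interval is not the same as the 133 kb. At the mean rate of the stretch, 1.56 peaks would fall in a segment of that length, so the absence of peaks there is a difference of few peaks. Of 11 neighbouring protein-coding genes that were looked up by name, 2 had a peak (18.2%, against 6.15% of 21631 protein-coding genes), Cryba4 and Crybb3. Ttc28, Pitpnb, Crybb1, Crybb2 and Grk3 had none, nor did Tpst2, Tfip11, Srrd and Hps4, and the further name Lrp5l was not matched. Cryba4 counts through its peaks in the stretch and Crybb3 lies just past it, so the share says nothing apart from the choice of the region.

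Gaps were shorter than elsewhere in the list. The median of the 19 gaps was 36.1 kb (95% order-statistic interval 15.2 to 80.8 kb), against 278 kb for 228 gaps of the rest of chromosome 5 and 490 kb for 2538 gaps of the whole list. Gaps of at most 50 kb made up 11 of 19 in the stretch (57.9%), 47 of 228 on the rest of the chromosome (20.6%) and 11.9% in the whole list. Of the 20 peaks, 12 (60.0%) stood in the 3 runs at Mn1, below Cryba4 and at Sez6l. On the rest of chromosome 5 it was 41 of 230 (17.8%), and over the whole list 5.98%. Density and gaps share one source, the positions by which the stretch was chosen, so the interval of the median gap is no test against the other medians.

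**Figure D4:**
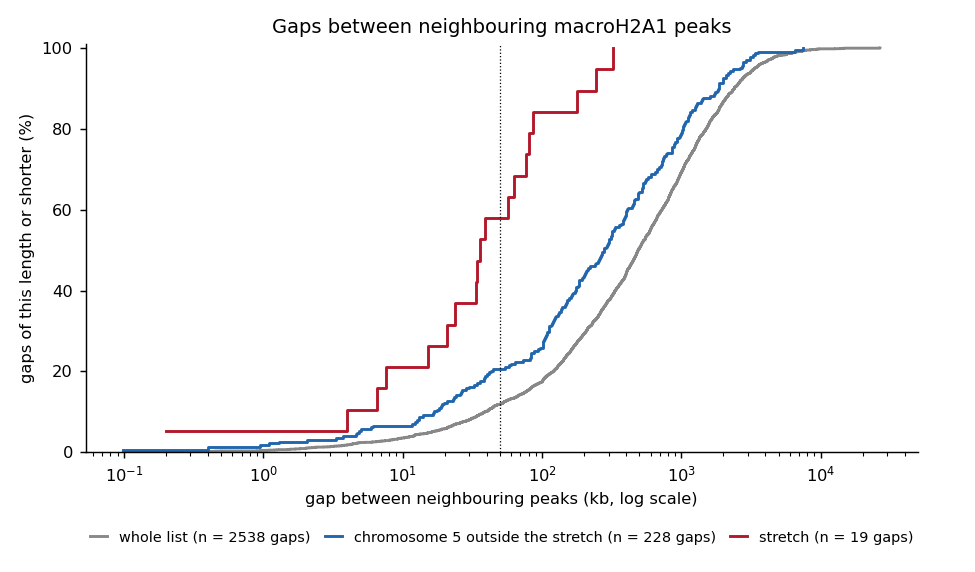
Cumulative share of gaps (vertical axis, %) up to a given length (horizontal axis, kb, log scale) for the stretch, the rest of chromosome 5 and the whole list, with 50 kb dotted. Median gaps are 36.1, 278 and 490 kb.

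Peaks of the stretch were wider in the median than those of the list, with much overlap. The median width was 1876 bp (95% order-statistic interval 1601 to 2101 bp, interquartile range 1588.5 to 2101 bp). It was 1601 bp over the 230 other peaks of chromosome 5 and 1551 bp over the 2538 peaks outside the stretch (interquartile range 1301 to 1801 bp). In the stretch 15 of 20 (75.0%) exceeded 1551 bp, and 6 of 20 (30.0%) exceeded 2000 bp, against 15.1% of the whole list. The 6 were the Myo18b peak, the wider Gm6588 peak, 1 of Cryba4 and 3 of ENSMUSG00000052848, so none was listed under Sez6l. Without the Myo18b peak the median was 1851 bp. These intervals treat peaks as separate draws, which neighbours in 1 library need not be, and cover no variation between cultures.

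**Figure D5:**
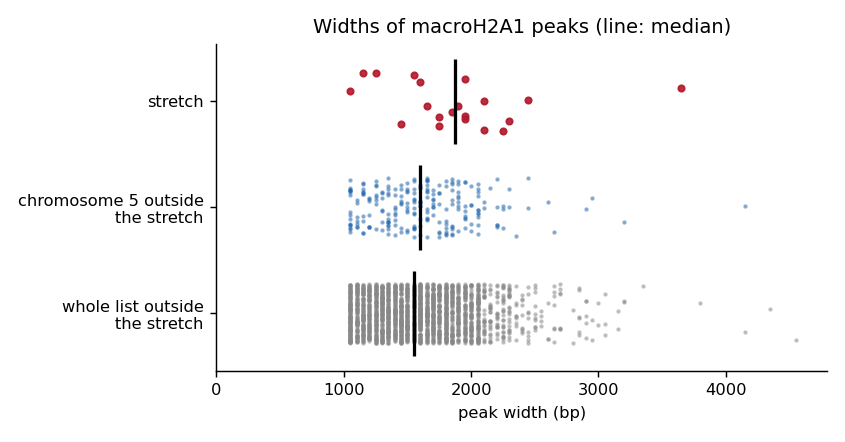
Width in bp (horizontal axis) of each peak in the stretch, on the rest of chromosome 5 and in the list outside the stretch, with medians as lines at 1876, 1601 and 1551 bp. Points are spread vertically for visibility, and the ranges overlap.

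No peak of the stretch was near the deposited start of its assigned gene. The deposited Myo18b, Cryba4 and Asphd2 are shorter than in RefSeq, and distances to RefSeq starts were not measured. The distance to the assigned start was 14.4 to 227 kb, with a median of 59.5 kb (95% order-statistic interval 24.6 to 86.9 kb). The median was 36.3 kb on the rest of chromosome 5 and 32.3 kb in the whole list. None of the 20 lay within 10 kb, where 44 of 230 peaks (19.1%) of the rest of chromosome 5 and 604 of 2558 (23.6%) of the list lay. By class, 11 peaks were downstream (55.0%, exact Clopper-Pearson 95% interval 31.5 to 76.9%), 7 upstream (35.0%, 15.4 to 59.2%) and 2 inside (10.0%, 1.23 to 31.7%). In the whole list 32.6% were downstream, 51.4% upstream and 14.2% inside. The 11 downstream peaks were those of Mn1, Cryba4, Gm6588 and all but 1 of ENSMUSG00000052848, and 5 of the 7 upstream peaks were those of Sez6l. Classes here follow from few genes, since peaks of 1 gene mostly share a class. The intervals above treat peaks as separate draws, which these are not, so they understate the uncertainty.

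Of 5 close relatives of Sez6l, Asphd2 and Myo18b, 0 had a peak, against 6.15% of protein-coding genes, so with so few genes the count is no result about them. No peak was listed under Sez6 or Sez6l2, the other members of the Sez6 family, under Asphd1 or Asph, or under Myo18a, the paralogue of Myo18b. Gene length and spacing, which affect how many peaks a gene collects under assignment to the nearest start, were not taken into account.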

How the data were processed

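Per the submitters' processing notes, reads were mapped with Bowtie to NCBIM37 (mm9). The deposited peak names start with CCAT, a caller that sets a ChIP library against a control. Its version, threshold and control library are not given in the labels or the file, and no values of the IgG library were analysed. The deposited columns hold coordinates, widths and distances in bp, each peak being assigned to the gene with the nearest start.

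Distances were recomputed between the gene start and the closest edge of the peak (0 where covered), and gaps as the bases between neighbouring peaks. The list holds 2560 rows and 2558 distinct regions, and gaps, widths and shares use the distinct ones. All 2560 rows lie on a grid of 50 bp, so widths and gaps are no finer than that. Peaks per Mb of a chromosome use the span from its first to its last peak. RefSeq GRCm38.p6 tables were used for names, gene order, gene lengths and promoter sequence. Peak sequences were not used here.

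The members and the gene lists were chosen with earlier results of these data known, and no test was made. Genes named are the 4 genes, every other gene assigned a peak in the stretch, the listed neighbours and relatives, and a few others named after their values were seen. The list of unconventional myosins is not reported here. Run detection was checked on simulated data, whose gaps lay either below the 50 kb limit or far above it. Python 3.11.15, pandas 2.3.3 and scipy 1.17.1 were used.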

Additional observations from a re-analysis of the deposited data

How the results depend on the processing

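With 1 library and no replicates, no library could be left out, and no paired analysis was possible because no groups were compared. Of 19 alternatives, 14 stayed within the 95% interval of the value or within 1.5 times the count, and 5 did not. The number of peaks in runs, 12, depended on the definition of a run. It was 7 when gaps of at most 25 kb were joined and 19 with gaps of at most 100 kb. It was 4 among the 15 peaks wider than the list's median. That filter removed a member of each run: the 1551 bp Mn1 peak, the 1451 bp Cryba4 peak and the 1151 bp Sez6l peak. Too few peaks were then left for the runs at Mn1 and below Cryba4, and only the outer 4 peaks of the Sez6l run still counted. The number in runs was 6 among the peaks named for the 4 genes, where peaks listed under other genes were left out. The number of peaks was 10 with the 4 symbols alone. Counting overlap with any gene of the list, chosen after the data were seen, 20.0% of peaks lay in a gene instead of 10.0%. That share is among the 14 because the interval is wide, 1.23 to 31.7%. The median gap is among them for the same reason. It was 68.7 kb among the 15 wider peaks instead of 36.1 kb, inside the interval of 15.2 to 80.8 kb. Overlap with the deposited coordinates of the assigned gene, also among the 14, restates the class and could hardly move. The list holds no read depth, so the precision of single peaks is unknown.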

Other observations

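The caller's numbering of the peaks was uneven in the stretch. The number at the end of a peak's name has no stated meaning. Across the list, lower numbers went with wider peaks (Spearman's rho = -0.60 over 2558 peaks of 1 library, which are not independent). Of the 20 peaks, 6 had numbers up to 200 (30.0%), a limit set after the data were seen, against 194 of 2538 outside the stretch (7.64%). Peak 2 of the list was the wider of the Gm6588 peaks inside Sez6l, and peak 34 was the ENSMUSG00000052848 peak 21.2 kb from the start of that gene. The Myo18b peak, the widest of the stretch, had number 1515.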
